A study of Mus musculus with 15 samples.

Results

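Tumors grown from a UVB-derived melanoma line (UV2) were compared with tumors grown from its parental line, pooled over 2 antibody treatments. The comparison uses 12 of the series' 15 libraries: all 6 UV2 libraries (3 under anti-PD-1, 3 under isotype antibody) and the 6 parental libraries under the same antibodies. The parental triple therapy libraries (3) have no UV2 counterpart and stayed out. The question is which transcripts separate the lines whichever antibody was given, with antibody as a covariate, and which of these differences hold in each antibody arm taken by itself.

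The 4 groups were UV2 (cell line D3UV2) given anti-PD-1, UV2 given isotype antibody, parental (D4M.3A.3) given anti-PD-1 and parental given isotype antibody, 3 libraries each. Anti-PD-1 blocks a checkpoint receptor of T cells, and the isotype antibody is its control. All hosts were female C57BL/6 mice, 8 weeks old when each flank received 1000000 cells. Antibody was given on days 8, 10 and 12 and the whole tumors were taken on day 13, from left flanks. Bulk RNA was sequenced, and transcript abundance was deposited as TPM, a unit scaled for transcript length and for the total of each library. Each line is a single cell line, so the putative UVB-induced neoantigens that UV2 carries cannot be told apart from anything else in which the lines differ. Nothing in the labels says whether the 3 tumors behind a group grew in different mice. The p-values therefore measure the spread between these samples, which may in part be technical.

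A melanoma graft in a host of the same inbred strain is a mixture of tumor cells, vessels, connective tissue and infiltrating leukocytes. T cells and NK cells that recognise tumor cells release interferon gamma, which induces genes of antigen presentation and chemokines that attract more T cells. Type I interferons induce genes whose promoters carry the interferon-stimulated response element. Tumor cells with low oxygen supply induce genes of glycolysis and vessel growth through hypoxia-inducible factors. Sterol synthesis genes are driven by the factor Srebf2 when cell sterols are low, and the MAPK pathway, which carries growth signals in most melanomas, induces its own feedback inhibitors.

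Interferon-response genes were among the genes that rose in UV2 in both antibody arms, so promoters of 4 of them are shown. Each sequence holds the 250 bases before the RefSeq transcription start on GRCm38.p6, written 5′ to 3′ on the gene's strand. Capitals mark the core of the interferon-stimulated response element (GAAA, any 2 bases, GAAA, on either strand), with overlapping matches run together. Oas1g and Oas1a encode paralogous enzymes that make the signal for viral RNA decay, Slfn5 encodes a Schlafen family protein, and Isg15 encodes a ubiquitin-like modifier. Oas1g lies at chr5:120887614-120887863 (minus strand), Oas1a at chr5:120907526-120907775 (minus), Slfn5 at chr11:82951852-82952101 (plus) and Isg15 at chr4:156200819-156201068 (minus), each given as the interval printed.
Oas1g: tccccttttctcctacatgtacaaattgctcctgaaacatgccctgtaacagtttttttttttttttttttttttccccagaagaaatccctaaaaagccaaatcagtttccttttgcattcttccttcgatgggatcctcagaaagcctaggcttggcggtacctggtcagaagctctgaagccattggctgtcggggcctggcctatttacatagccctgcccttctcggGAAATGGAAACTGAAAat
Oas1a: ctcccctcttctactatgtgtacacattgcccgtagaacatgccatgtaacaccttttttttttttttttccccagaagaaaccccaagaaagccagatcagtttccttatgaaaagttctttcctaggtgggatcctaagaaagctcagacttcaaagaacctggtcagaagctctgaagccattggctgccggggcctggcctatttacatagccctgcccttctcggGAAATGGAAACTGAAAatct
Slfn5: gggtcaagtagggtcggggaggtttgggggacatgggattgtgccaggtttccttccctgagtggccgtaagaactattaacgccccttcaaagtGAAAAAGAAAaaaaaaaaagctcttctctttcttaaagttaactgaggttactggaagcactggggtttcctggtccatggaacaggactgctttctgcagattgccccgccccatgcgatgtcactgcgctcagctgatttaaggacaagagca
Isg15: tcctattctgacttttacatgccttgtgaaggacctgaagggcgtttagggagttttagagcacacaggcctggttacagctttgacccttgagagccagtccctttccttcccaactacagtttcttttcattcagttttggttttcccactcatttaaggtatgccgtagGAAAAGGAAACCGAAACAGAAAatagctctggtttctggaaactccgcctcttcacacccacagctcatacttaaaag

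The match nearest the start site ended 2 bases before it in Oas1g, 4 in Oas1a, 145 in Slfn5 and 56 in Isg15. All 4 genes were chosen after their values were seen, because they hold higher in UV2 and their promoters carry the motif. Its presence in the sequences shown was thus fixed by the choice.

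The libraries tended to stand apart by line, with overlap. Each library had 12239 to 12994 genes at 1 TPM or more, and read depth is unknown because TPM keeps no counts. Correlations of log2(TPM + 1) ran from 0.975 to 0.995 within a group and from 0.933 to 0.986 between lines. Within a line across antibodies they ran from 0.964 to 0.994. UV2 isotype replicate 1 had 0.974 to 0.986 with parental libraries, against 0.964 to 0.979 with UV2 anti-PD-1 libraries. On the first principal component (55.9% of the variance) UV2 libraries scored from -1.5 to 79.7 and parental libraries from -58.7 to 9.1: parental isotype replicate 3 (9.1) lay above UV2 isotype replicates 1 (-1.5) and 3 (4.7), so these 2 groups were not separated there. Results are therefore also given without UV2 isotype replicate 1 and parental isotype replicate 3 together, a choice made after seeing the data. Several markers of pigmented melanocytes were close to absent in both lines: Sox10 reached at most 0.25 TPM, Tyrp1 0.04, Dct 0.13, Pmel 0.79 and Mlana 1.6 TPM in any of the 12 libraries. Others were measured: Tyr, the first enzyme of pigment synthesis, ran from 2.04 to 4.57 TPM in UV2 and from 1.49 to 3.01 TPM in parental tumors. Gpnmb, a melanosome and macrophage glycoprotein, ran from 5.69 to 28.3 TPM in UV2 and from 9.6 to 51.7 TPM in parental tumors, and Mitf, the master factor of melanocytes, from 5.28 to 11 TPM against 5.72 to 11.8 TPM. Vim, the mesenchymal filament vimentin, ran from 3856 to 7104 TPM in UV2 and from 9069 to 13619 TPM in parental tumors.

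Pooled over antibodies, 4350 of 13270 genes (32.8%) differed between the lines at an adjusted p under 0.05 in the additive limma model. Of these, 1915 (14.4% of genes tested) were higher in UV2 and 2435 (18.3%) lower. Which direction was the more frequent depended on the setting: there were 2535 higher and 2355 lower with median-of-ratios scaling, and 1742 higher and 1494 lower without parental anti-PD-1 replicate 1. Higher calls also outnumbered lower ones without UV2 isotype replicate 2 (1608 and 1456) and without UV2 anti-PD-1 replicate 3 (1520 and 1502). The median log2 fold change over all genes was -0.13, against 0.02 with median-of-ratios scaling, so a gene at 0 on the TPM scale sat slightly above the typical gene. All 4350 had the same sign in both arms, beside 80.9% of all genes. The pooled value averages the 2 arms, so this agreement follows largely from how the genes were called. A stricter count asked in addition that, in each arm separately, all 3 UV2 libraries lie on the same side of all 3 parental libraries. By that rule 827 genes were higher (6.23%) and 844 lower (6.36%) in both arms, together 1671, or 38.4% of the pooled calls. Below, such genes are said to hold in both arms. Holding does not require a call within an arm: in the model with all 4 groups, 193 genes were called in both arms with the same sign. For example, H2-Q8 and Ccl17 hold but were called in neither arm (limma adjusted p from 0.0519 to 0.116). Over all genes, 2627 were separated under isotype and 6909 under anti-PD-1, and 1726 in both arms in the same direction against 10 in opposite directions. A full separation of all 6 UV2 from all 6 parental libraries was met by 596 genes above (4.49%) and 707 below (5.33%). The pooled count was 2794 without parental anti-PD-1 replicate 3, the single library whose removal moved it by over 1.5 times. The count of genes that hold was 4429 without parental isotype replicate 3. It was 5176 without that library and UV2 isotype replicate 1. Both counts rest on fewer libraries, with which the separation rule is easier to meet, so they are not like for like with 1671.

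The line difference was called for far fewer genes under isotype than under anti-PD-1, while the difference between the arms was called for none in the unweighted model. Under anti-PD-1, 3243 genes (24.4%) differed, 1273 higher (9.59%) and 1970 lower (14.8%) in UV2. Under isotype 227 genes (1.71%) differed, 121 higher (0.912%) and 106 lower (0.799%). The limma interaction of line and antibody called 0 genes (0%), although 457 genes passed 0.05 before adjustment (smallest adjusted p 0.775). This count depended on the model, since the fit with library weights called 1612 genes for the interaction. The median absolute log2 fold change over all genes was 0.51 under anti-PD-1 and 0.26 under isotype. Of the pooled calls, 3571 had the larger absolute value under anti-PD-1. The isotype count rested on few libraries: it was 8, 9 and 10 without parental isotype replicate 1, parental isotype replicate 2 and UV2 isotype replicate 2, and 365 and 619 without UV2 isotype replicate 1 and parental isotype replicate 3. Anti-PD-1 libraries share the estimate of spread: leaving out UV2 replicate 1 of that arm gave 86, parental replicate 2 gave 141 and parental replicate 3 gave 140. The anti-PD-1 count was 98, 541, 1623 and 1863 without parental anti-PD-1 replicate 3, UV2 anti-PD-1 replicate 3, UV2 anti-PD-1 replicate 2 and parental anti-PD-1 replicate 1.

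The arms share no library, so each was also fitted alone and its calls were looked up in the other. The isotype arm alone called 69 genes, 33 higher and 36 lower in UV2. All 69 had the same sign under anti-PD-1, against 80.8% of all genes, and 49 of them (71%) were called there too, against 29.8% of all genes called with the same sign. The anti-PD-1 arm alone called 4104 genes, of which 3960 (96.5%) had the same sign under isotype and 49 (1.19%) were also called, against 0.52% of all genes. Across genes, the arms' log2 fold changes had a Pearson r and a Spearman rho of 0.78, a description over genes that are not independent. In the model with all 4 groups, 194 genes were called in both arms, which is 5.98% of the anti-PD-1 calls and 85.5% of the isotype calls. Among them 93 were higher in both, 100 lower in both and 1, Rmrp, differed in sign. Rmrp, the RNA component of a processing ribonuclease, had 0.6, 0.97 and 0.54 TPM in UV2 anti-PD-1 tumors and 1.22, 2.54 and 1.1 TPM in UV2 isotype tumors, against 1.34, 1.91 and 2.14 TPM in parental anti-PD-1 tumors and 0, 0 and 0 TPM in parental isotype tumors. It was listed at 0 in each parental isotype library and stayed under 3 TPM in the others.

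**Figure D1:**
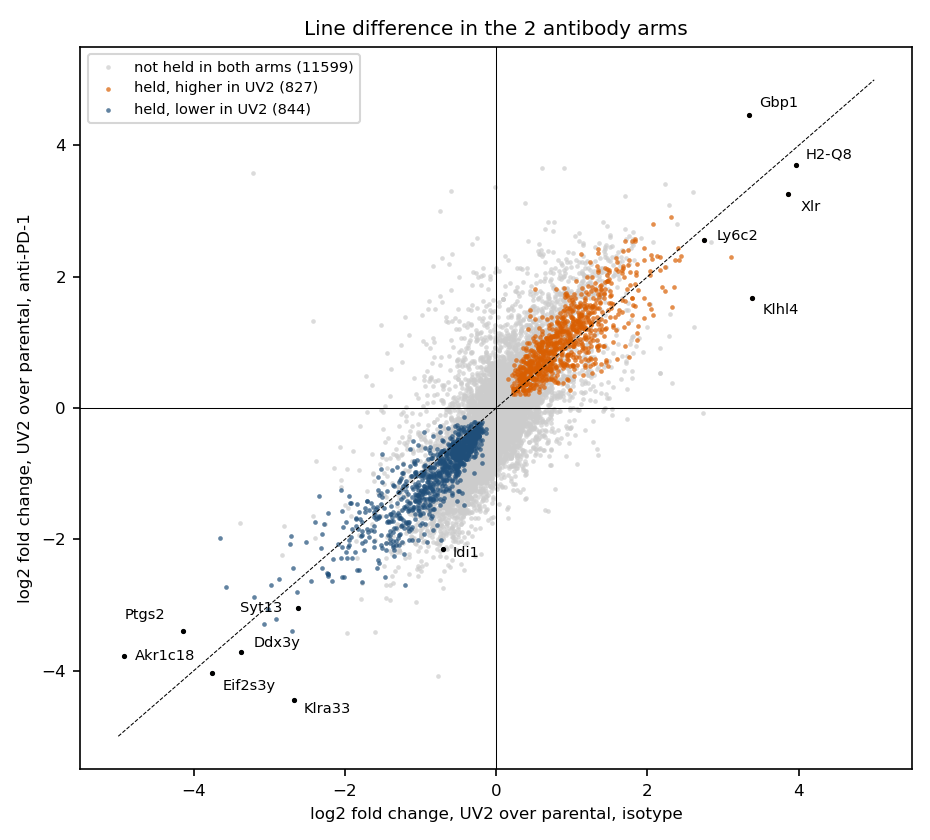
Each point is 1 of the 13270 genes tested, with the log2 fold change of UV2 over parental under isotype (horizontal) and under anti-PD-1 (vertical), and the dashed line marks equal values. Genes that hold in both arms are orange (827, higher in UV2) and blue (844, lower), the rest grey, and labelled genes black; Ddx3y and Eif2s3y were listed at 0 TPM in every UV2 library, so their places depend on the pseudocount.

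The 15 highest named genes that hold in both arms had log2 fold changes from 2.19 to 3.90. Gbp1, an interferon-inducible guanylate-binding GTPase at chr3:142594847-142619179 (plus strand, GRCm38), had 98.6, 20.3 and 149.7 TPM in UV2 anti-PD-1 tumors and 3.06, 49.7 and 33.3 TPM in UV2 isotype tumors, against 2.53, 3.29 and 0.98 TPM in parental anti-PD-1 tumors and 0.16, 0.82 and 2.24 TPM in parental isotype tumors. Every UV2 library of an arm lay above the parental libraries of that arm, though UV2 isotype replicate 1, at 3.06 TPM, lay just under the highest parental anti-PD-1 library. The pooled log2 fold change was 3.90 ± 0.65 (SE), adjusted p = 0.00205.

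Xlr, the founding gene of the X-linked lymphocyte-regulated family, whose proteins are nuclear, lies at chrX:53777118-53797706 (minus strand, GRCm38). It had 23.5, 28 and 29.6 TPM in UV2 anti-PD-1 tumors and 52.5, 48 and 33.2 TPM in UV2 isotype tumors, against 3.18, 1.46 and 1.4 TPM in parental anti-PD-1 tumors and 2.06, 1.82 and 2.42 TPM in parental isotype tumors. The groups did not come near each other, and Xlr had the smallest adjusted p of any gene higher in UV2 (log2 fold change 3.56 ± 0.19 (SE), adjusted p = 1.43e-06). Of the family, Xlr included, all 5 members that passed the filter on low values were called higher (median log2 fold change 1.51), 3 of them holding in both arms, whereas 5 of the 10 family members in the table did not pass. Xlr3b ran from 1.01 to 3.37 TPM in UV2 and from 0 to 0.9 TPM in parental tumors, and Xlr4c from 1.05 to 5.35 TPM against 0 to 1.02 TPM. These paralogs are near-identical, so reads may be split among them, as also for Oas1a and Oas1g, H2-Q8, Ly6c2, Serpina3g, Klra33 and Akr1c18.

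Klhl4, an X-linked kelch-like gene at chrX:114474333-114560829 (plus strand, GRCm38), had 10.2, 3.71 and 7.26 TPM in UV2 anti-PD-1 tumors and 27.7, 12.2 and 19.8 TPM in UV2 isotype tumors, against 1.83, 1.01 and 1.33 TPM in parental anti-PD-1 tumors and 1.03, 0.71 and 1 TPM in parental isotype tumors. The lines did not overlap, and the UV2 isotype tumors held the highest values (log2 fold change 2.53 ± 0.34 (SE), adjusted p = 0.00101). Cxcl12, the chemokine that binds Cxcr4, had 288, 472 and 282 TPM in UV2 anti-PD-1 tumors and 637, 486 and 364 TPM in UV2 isotype tumors, against 207, 56.5 and 28.4 TPM in parental anti-PD-1 tumors and 79.1, 69.7 and 148 TPM in parental isotype tumors. All 6 UV2 values exceeded all 6 parental ones (log2 fold change 2.31 ± 0.39 (SE), adjusted p = 0.00226).

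Several other leaders are expressed in leukocytes. Ly6c2, a surface marker of inflammatory monocytes, had 236, 133 and 599 TPM in UV2 anti-PD-1 tumors and 274, 306 and 439 TPM in UV2 isotype tumors, against 34.3, 83 and 30.4 TPM in parental anti-PD-1 tumors and 42.2, 22.8 and 119 TPM in parental isotype tumors, with the lowest UV2 value just above the highest parental one (log2 fold change 2.65 ± 0.43 (SE), adjusted p = 0.00193). Clec12a, an inhibitory lectin receptor of myeloid cells, ran from 69.5 to 261 TPM in UV2 (median 143) and from 20.5 to 48.7 TPM in parental tumors (median 31). Naaa, a lysosomal amidase that degrades lipid amides, ran from 92.2 to 267 TPM in UV2 and from 19.3 to 54.2 TPM in parental tumors. Neither overlapped between the lines. Ly9, a SLAM family receptor of lymphocytes, had log2 fold change 2.19 ± 0.31 (SE), adjusted p = 0.00111, and Plac8, abundant in several leukocyte types, had log2 fold change 2.44 ± 0.35 (SE), adjusted p = 0.00126.

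Ccl17, a chemokine for Ccr4-bearing T cells, had 3.1, 7.57 and 7.02 TPM in UV2 anti-PD-1 tumors and 6.23, 57 and 3.64 TPM in UV2 isotype tumors, against 0, 1.35 and 0 TPM in parental anti-PD-1 tumors and 0, 0.56 and 0.95 TPM in parental isotype tumors. UV2 isotype replicate 2 alone reached 57 TPM and the parental values lay near 0, so the fold (log2 2.70 ± 0.54 (SE), adjusted p = 0.00447) is on the log2(TPM + 1) scale and understates low levels. H2-Q8, a class I gene of the Q region, had 151, 84.8 and 85.1 TPM in UV2 anti-PD-1 tumors and 16.8, 78.5 and 184 TPM in UV2 isotype tumors, against 0, 20.2 and 22.6 TPM in parental anti-PD-1 tumors and 7.4, 0 and 7.19 TPM in parental isotype tumors. The lines overlapped across arms, but not within either (log2 fold change 3.84 ± 0.85 (SE), adjusted p = 0.00699). With parental libraries listed at 0 in each arm, the fold of H2-Q8 also depends on the pseudocount. Fam26f, a calcium homeostasis modulator family gene, Serpina3g, a serine protease inhibitor, and Nrgn, the calmodulin-binding protein neurogranin, completed the 15 with Ifi27l2a. Their log2 fold changes were 2.61 for Fam26f, 2.38 for Serpina3g, 2.34 for Nrgn and 2.22 for Ifi27l2a. Among all genes that hold, 260 were at or above 1 on the log2 scale in both arms.

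**Figure D2:**
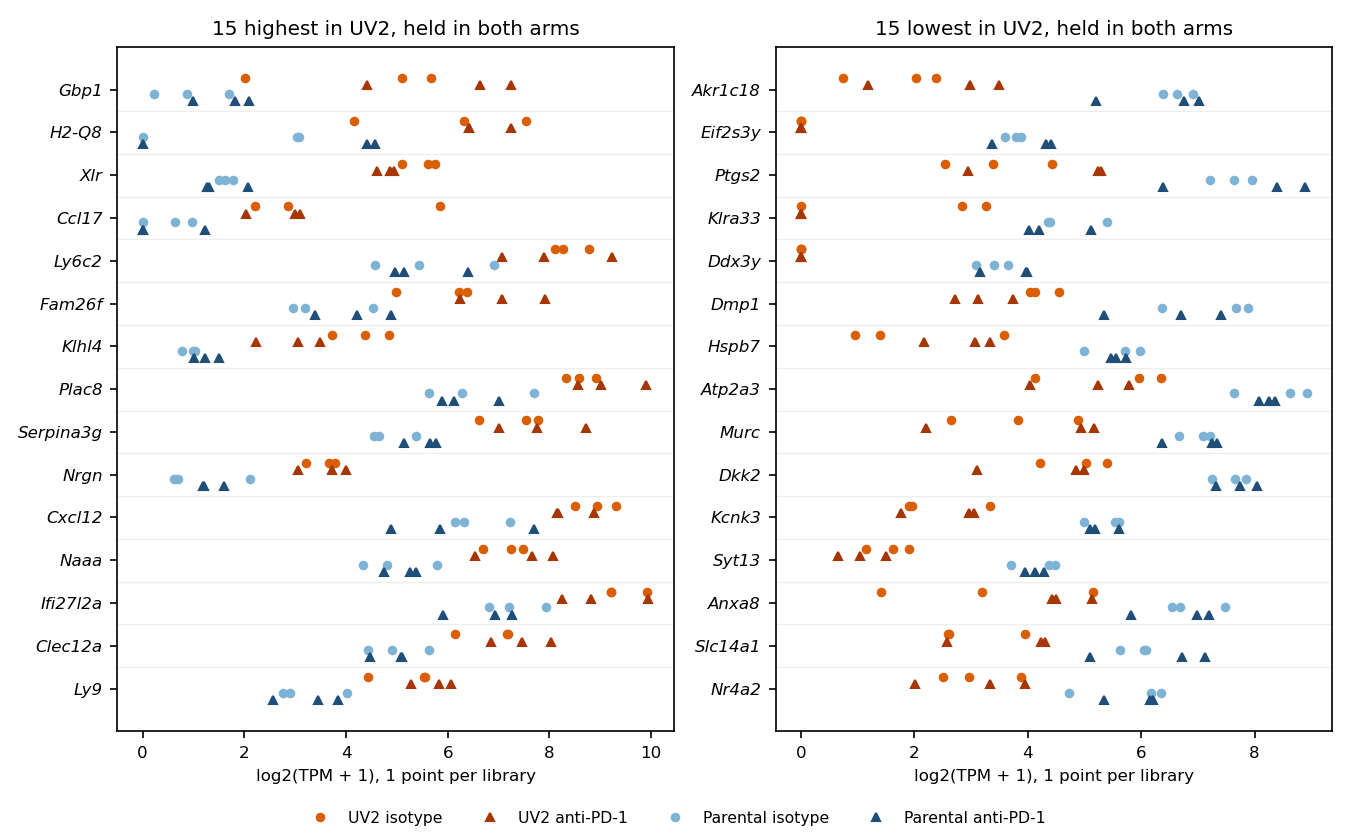
Level of the 15 highest and 15 lowest named genes that hold in both arms, as log2(TPM + 1), with 1 point per library (circles isotype, triangles anti-PD-1; orange and brown UV2, light and dark blue parental). In each arm the 3 UV2 points lie on 1 side of the 3 parental points, while Gbp1 and H2-Q8 overlap once the arms are put together.

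Type I interferon response genes were higher in UV2 in both arms. Of 36 tested, 30 were called higher and 0 lower, and 16 hold in both arms, beside 14.4%, 18.3% and 6.23% of all genes. The 14.4% called higher and 18.3% called lower among all genes are also the background for each list count below. The median log2 fold change was 1.09 pooled, 0.90 under anti-PD-1 and 1.44 under isotype. The list's mean log2(TPM + 1) ran from 5.12 to 6.58 in UV2 and from 4.45 to 5.21 in parental tumors. Only UV2 anti-PD-1 replicate 2 (5.12) fell inside the parental range, and it still lay under 1 parental library of its own arm, replicate 2 at 5.21. Irf7, the factor that amplifies type I interferon production, had 306, 179.9 and 713 TPM in UV2 anti-PD-1 tumors and 399.7, 645 and 623 TPM in UV2 isotype tumors, against 60.4, 176 and 89.6 TPM in parental anti-PD-1 tumors and 116, 87.6 and 151 TPM in parental isotype tumors. Every UV2 value exceeded every parental one, and the log2 fold change was 2.0 ± 0.34 (SE), adjusted p = 0.00212. Oas1g had 19.1, 15.9 and 37.2 TPM in UV2 anti-PD-1 tumors and 22.3, 44.3 and 34.3 TPM in UV2 isotype tumors, against 5.52, 9.32 and 6.24 TPM in parental anti-PD-1 tumors and 6.92, 5.82 and 9.38 TPM in parental isotype tumors. The UV2 values again lay above all parental ones (log2 fold change 1.80 ± 0.24 (SE), adjusted p = 9.98e-04). Oas1a ran from 69.2 to 186 TPM in UV2 (median 122) and from 18.8 to 49 TPM in parental tumors (median 28.5), with no overlap. Isg15 had 296, 217 and 734 TPM in UV2 anti-PD-1 tumors and 649, 1183 and 613 TPM in UV2 isotype tumors, against 72.5, 204 and 165 TPM in parental anti-PD-1 tumors and 198, 152 and 208 TPM in parental isotype tumors, where UV2 anti-PD-1 replicate 2, at 217 TPM, was close to the highest parental value of 208 TPM (log2 fold change 1.74 ± 0.33 (SE), adjusted p = 0.00353). Slfn5 ran from 36.5 to 71.4 TPM in UV2 and from 11.4 to 31.5 TPM in parental tumors (log2 fold change 1.31 ± 0.24 (SE), adjusted p = 0.00276). Among the 6 not called were Ddx58 (0.38) and Eif2ak2 (0.25), both sensors of viral RNA. Transcripts of type I interferons themselves were at or near the floor: Ifna1, Ifna2 and Ifna4 were listed at 0 in all 12 libraries. Of the 8 interferon and receptor genes tested, 3 were called higher and 0 lower.

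The motif shown in the promoters was counted over all matched genes. A promoter sequence was found for 10381 of the 13270 genes tested, of which 412 (3.97%) held this core on either strand. The search covered the 250 bases and a shorter stretch after the start site. A gene counted if any of its promoters matched. Counted by promoter, an unlike measure, the share was 3.44% of all 32851 promoters. Among genes that hold, the share was 64 of 653 (9.8%) for those higher in UV2 and 14 of 656 (2.13%) for those lower. Within the lists, 15 of 27 type I interferon response genes with a promoter and 11 of 21 interferon gamma response genes held it. In all, 11 motifs were counted, and these shares are descriptions without a test. The gamma-activated site TTCNNNGAA stood in 63 of 653 (9.65%) genes higher in UV2 and 39 of 656 (5.95%) lower, against 8.34% of genes tested. The AP-1 site TGACTCA stood in 31 of 653 (4.75%) and 47 of 656 (7.16%), against 4.79%. A match is not a bound site, and a promoter without one says nothing of the factor.

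Interferon gamma response genes followed the same direction, with 20 of 29 called higher, 0 lower and 7 holding in both arms (median log2 fold change 1.15 pooled, 0.95 under anti-PD-1, 1.29 under isotype). Socs1, an inhibitor of cytokine signalling, had 57, 47.1 and 90 TPM in UV2 anti-PD-1 tumors and 30.1, 63.7 and 43.5 TPM in UV2 isotype tumors, against 17.7, 18.7 and 26.7 TPM in parental anti-PD-1 tumors and 9.17, 10.7 and 15.5 TPM in parental isotype tumors. Its lowest UV2 value, 30.1 TPM, exceeded the highest parental value, 26.7 TPM (log2 fold change 1.69 ± 0.22 (SE), adjusted p = 8.89e-04). Irf8, a factor of monocyte and dendritic cell development, ran from 42.1 to 119.8 TPM in UV2 and from 19 to 42.8 TPM in parental tumors (log2 fold change 1.48 ± 0.21 (SE), adjusted p = 0.00111). Cxcl9, which attracts T cells through Cxcr3, ran from 141 to 545 TPM in UV2 (median 271) and from 56.6 to 187 TPM in parental tumors (median 84.4), with overlap (log2 fold change 1.40 ± 0.30 (SE), adjusted p = 0.00571). Ifng itself had 29.5, 18.8 and 30.9 TPM in UV2 anti-PD-1 tumors and 3.32, 14.8 and 12.6 TPM in UV2 isotype tumors, against 3.42, 5.12 and 5.12 TPM in parental anti-PD-1 tumors and 2.32, 1.54 and 5.41 TPM in parental isotype tumors. UV2 isotype replicate 1 (3.32 TPM) lay inside the parental range and the other UV2 libraries above it (log2 fold change 1.83 ± 0.35 (SE), adjusted p = 0.00364). Cd274, the ligand of PD-1, ran from 15.7 to 68.3 TPM in UV2 and from 16.6 to 57.5 TPM in parental tumors and was not called (log2 fold change 0.36 ± 0.30 (SE), adjusted p = 0.341).

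Class II antigen presentation genes were higher in UV2. All 12 of 12 were called higher, with a median log2 fold change of 1.74 (1.98 under anti-PD-1, 1.62 under isotype), but only 4 hold in both arms. H2-Ab1, a class II chain, had 4299, 3668 and 4766 TPM in UV2 anti-PD-1 tumors and 638, 2987 and 2181 TPM in UV2 isotype tumors, against 932, 1152 and 379 TPM in parental anti-PD-1 tumors and 314, 285 and 1120.5 TPM in parental isotype tumors. UV2 isotype replicate 1, at 638 TPM, lay inside the parental range, where parental isotype replicate 3 had 1120.5 TPM, and the other 5 UV2 libraries lay above it (log2 fold change 2.15 ± 0.45 (SE), adjusted p = 0.00524). H2-DMa, which loads peptide on class II, had 291, 236 and 396 TPM in UV2 anti-PD-1 tumors and 89.2, 269 and 180.3 TPM in UV2 isotype tumors, against 73.5, 87 and 47.4 TPM in parental anti-PD-1 tumors and 40.5, 36.5 and 85.8 TPM in parental isotype tumors, and Ifi30, a lysosomal reductase of antigen processing, ran from 482 to 1089 TPM in UV2 and from 173 to 420.3 TPM in parental tumors. Both separated the lines fully (log2 fold changes 1.91 ± 0.29 (SE), adjusted p = 0.00148 for H2-DMa and 1.56 ± 0.24 (SE), adjusted p = 0.00143 for Ifi30).

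Of 20 class I presentation genes, 9 were called higher and 1 lower, with 6 holding in both arms and a median of 0.55. Psme1 and Psme2, activator subunits of the proteasome, Tapbp, the peptide-loading tapasin, and Tap1 and Tap2, the peptide transporter, were among the 9. Psme1 ran from 472 to 977 TPM in UV2 and from 234 to 409.7 TPM in parental tumors (log2 fold change 1.15 ± 0.19 (SE), adjusted p = 0.00214), and Tapbp from 313 to 602 TPM against 195 to 331 TPM (log2 fold change 0.91 ± 0.18 (SE), adjusted p = 0.0039). B2m, the light chain of class I, had 9856, 7983 and 13355 TPM in UV2 anti-PD-1 tumors and 5998, 11877 and 10697 TPM in UV2 isotype tumors, against 7186, 8935 and 9013 TPM in parental anti-PD-1 tumors and 8189.6, 8005 and 8348 TPM in parental isotype tumors. The values overlapped, with UV2 isotype replicate 1 the lowest of all 12, and B2m was not called (log2 fold change 0.22 ± 0.17 (SE), adjusted p = 0.309). The 1 class I list gene called lower was Canx, the chaperone calnexin (-0.64). Without UV2 isotype replicate 1 the count called higher was 14.

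Leukocyte transcripts were higher in UV2 as a group. All 6 pan-leukocyte markers were called higher (median log2 fold change 1.52), 4 hold in both arms, and none was at 0. Their summed level ran from 1406 to 4126 TPM in UV2 and from 623 to 1292 TPM in parental tumors. In bulk tissue, more cells of a type and more RNA per cell cannot be told apart. Cd52, a small glycoprotein on lymphocytes and monocytes, had 1157, 1123 and 2209 TPM in UV2 anti-PD-1 tumors and 523, 1439.6 and 923 TPM in UV2 isotype tumors, against 267, 339.9 and 160.4 TPM in parental anti-PD-1 tumors and 229, 174 and 505 TPM in parental isotype tumors; Rac2, a GTPase of blood cells, ran from 70.6 to 174 TPM in UV2 and from 20.5 to 56.5 TPM in parental tumors. Neither overlapped between the lines (log2 fold changes 2.12 ± 0.34 (SE), adjusted p = 0.00182 for Cd52 and 1.91 ± 0.27 (SE), adjusted p = 0.00117 for Rac2). Ptprc, the common leukocyte antigen, ran from 46.9 to 158 TPM in UV2 and from 28 to 65.8 TPM in parental tumors, with overlap (log2 fold change 1.26 ± 0.27 (SE), adjusted p = 0.00633).

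T cell transcripts were called higher but did not separate the lines in each arm. Of 17 tested, 15 were called higher, 1 was lower and 0 hold in both arms (median 1.67 pooled, 2.10 under anti-PD-1, 1.27 under isotype). Cd3e, a chain of the T cell receptor complex, had 66.5, 39 and 35.1 TPM in UV2 anti-PD-1 tumors and 6.72, 27.8 and 34.3 TPM in UV2 isotype tumors, against 12.4, 14.4 and 3.77 TPM in parental anti-PD-1 tumors and 5.46, 5.51 and 14.9 TPM in parental isotype tumors. Cd8a, the coreceptor of cytotoxic T cells, had 69.2, 43.2 and 36 TPM in UV2 anti-PD-1 tumors and 5.6, 39.3 and 36.9 TPM in UV2 isotype tumors, against 17.1, 13.2 and 4.7 TPM in parental anti-PD-1 tumors and 6.89, 4.69 and 15.9 TPM in parental isotype tumors. In both, UV2 isotype replicate 1 lay within the parental range and parental isotype replicate 3 above the other parental isotype libraries, while under anti-PD-1 all 3 UV2 libraries lay above all 3 parental ones. The pooled log2 fold changes were 1.70 ± 0.45 (SE), adjusted p = 0.0147 for Cd3e and 1.67 ± 0.49 (SE), adjusted p = 0.0226 for Cd8a, and the call for Cd8a was lost without UV2 isotype replicate 2 (1.52), parental isotype replicate 2 (1.57) or parental anti-PD-1 replicate 3 (1.40). The 1 member called lower was Tcf7, a factor of naive and stem-like T cells that other cells also express. It ran from 14.4 to 38.6 TPM in UV2 (median 17.5) and from 25.9 to 49 TPM in parental tumors (median 36.2), with log2 fold change -0.78 ± 0.25 (SE), adjusted p = 0.0351. Its call was lost in 8 of the 12 fits that left out 1 library, where the value ran from -0.78 to -0.67.

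Effector, checkpoint and regulatory T cell genes gave the same direction. Of 10 cytotoxic effector genes 8 were called higher, of 9 checkpoint genes 7, and of 8 regulatory T cell genes 7, with 0 lower in each and median log2 fold changes of 1.58, 1.59 and 1.29. Few of them hold in both arms: 1 of 10 cytotoxic, 0 of 9 checkpoint and 3 of 8 regulatory T cell genes. Gzmb, a granule protease, ran from 30.8 to 167 TPM in UV2 (median 123) and from 14.3 to 40.1 TPM in parental tumors (median 33.2), with log2 fold change 1.72 ± 0.36 (SE), adjusted p = 0.00528. Pdcd1, which encodes PD-1, had 61.3, 35.7 and 34.4 TPM in UV2 anti-PD-1 tumors and 4.06, 29 and 31 TPM in UV2 isotype tumors, against 7.02, 15.6 and 4.58 TPM in parental anti-PD-1 tumors and 6.84, 4.05 and 12.6 TPM in parental isotype tumors. UV2 isotype replicate 1, at 4.06 TPM, lay beside the lowest parental library, at 4.05 TPM (log2 fold change 1.66 ± 0.49 (SE), adjusted p = 0.0242). The call for Pdcd1 was lost without any 1 of UV2 isotype replicate 2 (1.54), UV2 anti-PD-1 replicate 1 (1.47), parental isotype replicate 2 (1.57), parental anti-PD-1 replicate 1 (1.55) and parental anti-PD-1 replicate 3 (1.44). Foxp3, the factor that defines regulatory T cells, had 5.27, 3.53 and 3.72 TPM in UV2 anti-PD-1 tumors and 1.91, 2.19 and 6.67 TPM in UV2 isotype tumors, against 2.08, 1.88 and 0.88 TPM in parental anti-PD-1 tumors and 0.7, 1.07 and 1.44 TPM in parental isotype tumors. It holds in both arms, although its arms overlap when put together (log2 fold change 1.01 ± 0.24 (SE), adjusted p = 0.0101). Il10, an immunosuppressive cytokine, ran from 4.38 to 14.9 TPM in UV2 and from 0.81 to 2.58 TPM in parental tumors, with no overlap (log2 fold change 1.85 ± 0.25 (SE), adjusted p = 0.00101).

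NK cell, dendritic cell, macrophage and mast cell genes were mostly higher, whereas B cell and neutrophil genes were mostly not called. Of 11 NK cell genes, 10 were called higher and 1, the Ly49 receptor gene Klra4 (-0.99), lower, a call lost without most single libraries, and 1 of the 11 holds in both arms. Xcl1, the chemokine that NK and T cells use to attract cross-presenting dendritic cells, ran from 15.3 to 47.8 TPM in UV2 and from 4.62 to 11.2 TPM in parental tumors, and its receptor Xcr1, on those dendritic cells, from 1.52 to 4.6 TPM against 0.3 to 0.82 TPM. Neither overlapped between the lines (log2 fold changes 1.78 ± 0.29 (SE), adjusted p = 0.00177 for Xcl1 and 1.39 ± 0.19 (SE), adjusted p = 0.00107 for Xcr1). Dendritic cell genes were called higher for 10 of 16, with 6 holding, among them Clec9a, a receptor for dead cells, and Il12b, a subunit of the cytokine that drives interferon gamma. Il12b ran from 2.21 to 6.72 TPM in UV2 and from 0.3 to 1.2 TPM in parental tumors (log2 fold change 1.63 ± 0.23 (SE), adjusted p = 0.00112). Macrophage and monocyte genes were called higher for 14 of 21 and lower for 0. Ccr2, the receptor that brings monocytes into tissue, ran from 53.7 to 116 TPM in UV2 and from 12.9 to 42.7 TPM in parental tumors, and C1qc, a complement subunit of macrophages, from 1079.7 to 3288 TPM against 544 to 1042 TPM. Cd163 (0.27), Mrc1 (0.51) and Arg1 (0.19), markers of alternatively activated macrophages, were not called. Mast cell genes were called higher for 5 of 6, with 1 holding, B and plasma cell genes for 2 of 8 and neutrophil genes for 1 of 11. Without UV2 isotype replicate 1 and parental isotype replicate 3 these last counts were 5 and 5. The B cell count was 1 in 9 of the 12 fits that left out 1 library, all of which lost the call of Cd22, a B cell receptor, and the neutrophil count was 0 without parental anti-PD-1 replicate 3.

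Chemokines were called higher for 17 of 27 and lower for 0, with 5 holding in both arms (median log2 fold change 1.45). Ccl4, a chemokine for T cells and monocytes, had 213, 173 and 202 TPM in UV2 anti-PD-1 tumors and 32.6, 135 and 101 TPM in UV2 isotype tumors, against 37.2, 33.2 and 25 TPM in parental anti-PD-1 tumors and 19.1, 18.2 and 51.8 TPM in parental isotype tumors. UV2 isotype replicate 1 fell within the parental range of its arm and the rest lay above it (log2 fold change 2.05 ± 0.37 (SE), adjusted p = 0.00275). The neutrophil attractants Cxcl1 (0.57), Cxcl2 (0.02), Cxcl3 (-0.12) and Cxcl5 (0.09) were not called.

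**Figure D3:**
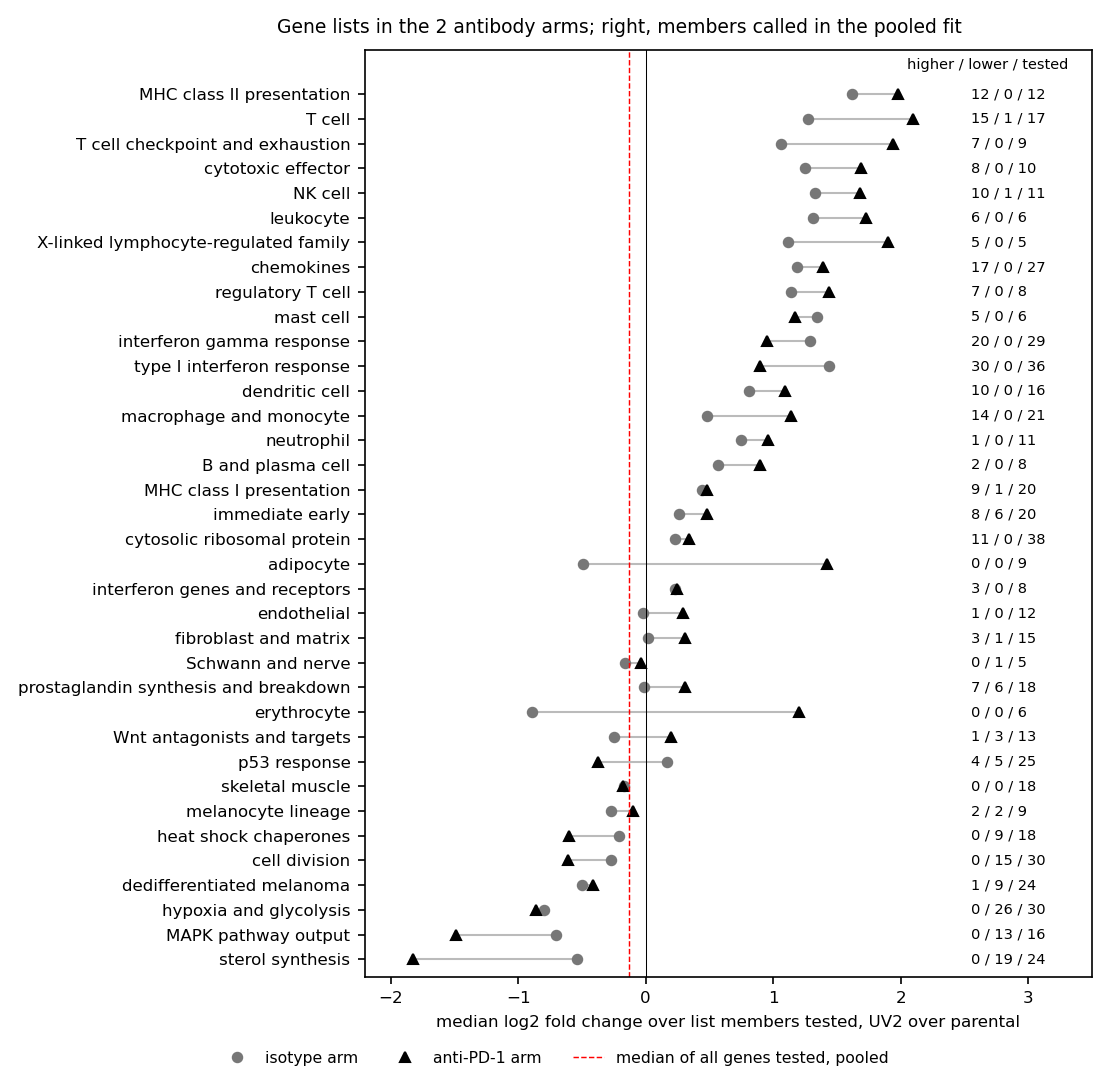
Median log2 fold change of UV2 over parental for each list with at least 5 members tested, under isotype (circles) and anti-PD-1 (triangles), with the red dashed line at the median of all genes (-0.13, pooled) and counts of members called at the right. Immune lists lie to the right in both arms, and sterol synthesis, MAPK output and hypoxia lists to the left in both; adipocyte and erythrocyte lists, with 0 members called, have opposite signs in the arms.

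Most Y-linked transcripts were at or next to 0 in UV2. Of 9 listed, 4 passed the filter and all 4 were called lower and hold in both arms. Zfy1, Zfy2, Sry and Usp9y were listed at 0 in all 12 libraries. Uba1y did not pass and overlapped between the lines, from 0.12 to 0.65 TPM in UV2 and from 0.43 to 0.82 TPM in parental tumors. Eif2s3y, the Y copy of a translation initiation factor subunit at chrY:1010543-1028847 (plus strand, GRCm38), was listed at 0 in all 6 UV2 libraries, against 9.32, 20.3 and 19.1 TPM in parental anti-PD-1 tumors and 13.8, 12.8 and 11.1 TPM in parental isotype tumors. Ddx3y, the Y copy of an RNA helicase at chrY:1260771-1286629 (minus strand, GRCm38), was also at 0 in all 6, against 7.97, 14.6 and 14.9 TPM in parental anti-PD-1 tumors and 11.6, 9.56 and 7.55 TPM in parental isotype tumors. Kdm5d, a histone demethylase, was at 0 in UV2 and ran from 0.71 to 2.68 TPM in parental tumors. Uty, also a demethylase family gene, reached 0.02 TPM in 1 UV2 library and ran from 0.99 to 3 TPM in parental tumors. No fold is given for these 4 genes, because their UV2 values were listed at or next to 0. The hosts were female. Xist, the RNA of the inactive X chromosome, was present in both lines, from 8.23 to 27.8 TPM in UV2 and from 5.86 to 25.1 TPM in parental tumors, and was not called (log2 fold change 0.40 ± 0.36 (SE), adjusted p = 0.384).

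Genes of prostaglandin metabolism held the strongest falls outside the Y chromosome. Akr1c18, a hydroxysteroid dehydrogenase that inactivates progesterone, lies at chr13:4132615-4150654 (minus strand, GRCm38). It had 6.87, 10.3 and 1.28 TPM in UV2 anti-PD-1 tumors and 3.08, 0.68 and 4.23 TPM in UV2 isotype tumors, against 107, 35.7 and 129 TPM in parental anti-PD-1 tumors and 119, 83 and 98.1 TPM in parental isotype tumors. The highest UV2 value, 10.3 TPM, was far under the lowest parental one, 35.7 TPM (log2 fold change -4.35 ± 0.46 (SE), adjusted p = 3.24e-04). Ptgs2, the inducible cyclooxygenase that starts prostaglandin synthesis, lies at chr1:150100031-150108227 (plus strand, GRCm38). It had 36.7, 38.3 and 6.74 TPM in UV2 anti-PD-1 tumors and 4.81, 9.53 and 20.5 TPM in UV2 isotype tumors, against 473, 83 and 337 TPM in parental anti-PD-1 tumors and 246, 148 and 198 TPM in parental isotype tumors. The lines did not overlap (log2 fold change -3.77 ± 0.52 (SE), adjusted p = 0.00107). Ptgfr, the receptor for prostaglandin F, ran from 3.86 to 11.9 TPM in UV2 and from 24.8 to 47.8 TPM in parental tumors (log2 fold change -2.41 ± 0.24 (SE), adjusted p = 2.64e-04), and the constitutive cyclooxygenase Ptgs1 also fell (-2.55). In the opposite direction, Tbxas1, the thromboxane synthase of myeloid cells, ran from 23.8 to 60 TPM in UV2 and from 7.89 to 13.7 TPM in parental tumors (log2 fold change 1.86 ± 0.22 (SE), adjusted p = 5.75e-04). The receptor gene Ptger4 (0.98) and the catabolic gene Hpgd (1.66) were also higher. Of the 18 list members tested, 7 were called higher and 6 lower, so the list as a whole had no single direction. The 7 became 4 without UV2 anti-PD-1 replicate 2 or 3, parental isotype replicate 2, or parental anti-PD-1 replicate 2 or 3.

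The other lowest genes included matrix, muscle-type and signalling genes. Dmp1, a phosphoprotein of mineralized matrix, had 12.3, 7.74 and 5.56 TPM in UV2 anti-PD-1 tumors and 22.4, 16.5 and 15.5 TPM in UV2 isotype tumors, against 39.8, 168 and 103 TPM in parental anti-PD-1 tumors and 204, 235 and 81.3 TPM in parental isotype tumors, with no overlap between the lines (log2 fold change -3.18 ± 0.35 (SE), adjusted p = 3.41e-04). Dkk2, a secreted Wnt antagonist, had 30.8, 27.9 and 7.62 TPM in UV2 anti-PD-1 tumors and 31.8, 17.6 and 41.2 TPM in UV2 isotype tumors, against 213, 159.7 and 262 TPM in parental anti-PD-1 tumors and 199.5, 229 and 151 TPM in parental isotype tumors. The UV2 values all lay under 42 TPM and the parental ones over 150 TPM (log2 fold change -3.04 ± 0.33 (SE), adjusted p = 3.24e-04). Syt13, a synaptotagmin, ran from 0.58 to 2.77 TPM in UV2 and from 12 to 21.4 TPM in parental tumors, with the smallest adjusted p among genes lower in UV2 outside the Y chromosome (log2 fold change -2.84 ± 0.21 (SE), adjusted p = 3.98e-05). Kcnk3, a background potassium channel, Atp2a3, a calcium pump of the endoplasmic reticulum, and Anxa8, an annexin, had log2 fold changes of -2.84, -3.06 and -2.81. Hspb7, a small heat shock protein of muscle, and Murc, a muscle caveola protein, had log2 fold changes of -3.16 and -3.05. Hspb7 had 3.48, 7.45 and 9.06 TPM in UV2 anti-PD-1 tumors and 1.64, 0.95 and 11 TPM in UV2 isotype tumors, and from 31 to 62.2 TPM in parental tumors. The summed level of skeletal muscle markers was 19.9, 1270.2 and 1000.4 TPM in the same UV2 anti-PD-1 tumors and 11.5, 17.1 and 730.1 TPM in the UV2 isotype tumors, and from 23.1 to 958 TPM in parental tumors, with 0 of 18 markers called. Within UV2 the 3 libraries with high muscle sums were thus those with the highest Hspb7. The parental isotype libraries ran the other way. Their Hspb7 was 62.2, 51.3 and 31 TPM, with muscle sums of 24.7, 23.1 and 958 TPM. In parental anti-PD-1 tumors Hspb7 was 43.3, 46.2 and 52.3 TPM, with sums of 621, 339.9 and 370.3 TPM. Murc did not follow the sums throughout UV2: it had 29.5, 34.8 and 3.64 TPM in UV2 anti-PD-1 tumors and 13.2, 5.24 and 28.6 TPM in UV2 isotype tumors. UV2 anti-PD-1 replicate 3 thus had the lowest Murc of the 6, with a muscle sum of 1000.4 TPM. In the fit with a skeletal muscle covariate, 135 named genes kept their sign and call status. Beyond that fit, the part of muscle tissue in the line difference was not tested. Klra33, a Ly49 family receptor gene, was listed at 0 in 4 of 6 UV2 libraries, reached 6.19 and 8.58 TPM in the others, and ran from 15.3 to 41.2 TPM in parental tumors. Its log2 fold change was -3.56, a value that depends on the pseudocount because most UV2 libraries were listed at 0. The annotation used matches Klra33 to Klra4, which is also a separate entry, named above among NK cell genes with a smaller fall. Slc14a1, a urea transporter, fell by 2.74 and Nr4a2, an orphan nuclear receptor, by 2.72. In all, 239 genes that hold were at or under -1 on the log2 scale in both arms.

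Spp1, which encodes the secreted phosphoprotein osteopontin and is the most abundant transcript of most libraries, had 12015, 8974 and 13824 TPM in UV2 anti-PD-1 tumors and 12081, 22936 and 18189 TPM in UV2 isotype tumors, against 23006, 48449 and 44246 TPM in parental anti-PD-1 tumors and 48807, 49587 and 30084 TPM in parental isotype tumors. The UV2 values were all lower (log2 fold change -1.48 ± 0.23 (SE), adjusted p = 0.00153), although with quantile normalization the value was -0.58 and not called.

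Hypoxia and glycolysis genes were lower in UV2 in both arms. Of 30 tested, 26 were called lower, 0 higher, and 15 hold, beside 18.3% and 6.36% of all genes. The median log2 fold change was -0.89 pooled, -0.86 under anti-PD-1 and -0.80 under isotype. Ldha, which makes lactate, had 1370.2, 1305 and 1185 TPM in UV2 anti-PD-1 tumors and 1113, 1494 and 1519 TPM in UV2 isotype tumors, against 2056, 2337 and 2565 TPM in parental anti-PD-1 tumors and 2266, 2279 and 2125 TPM in parental isotype tumors. The UV2 values were all under 1520 TPM and the parental ones all at or over 2056 TPM (log2 fold change -0.78 ± 0.10 (SE), adjusted p = 7.16e-04). Pkm, the last enzyme of glycolysis, ran from 1399 to 2278 TPM in UV2 and from 2849.8 to 4546 TPM in parental tumors, and Pgk1 from 617 to 954 TPM against 1258 to 1804 TPM. Neither overlapped (log2 fold changes -1.07 ± 0.14 (SE), adjusted p = 9.01e-04 for Pkm and -0.93 ± 0.13 (SE), adjusted p = 0.00107 for Pgk1). The hypoxia-inducible genes Vegfa (-1.34), the vessel growth factor, Bnip3 (-1.49), a mitophagy receptor, and Egln3 (-1.49), an oxygen sensor, hold in both arms too. Adm, the vasodilator adrenomedullin, had 11.1, 13.1 and 4.39 TPM in UV2 anti-PD-1 tumors and 1.73, 4.71 and 3.91 TPM in UV2 isotype tumors, against 13.6, 11.6 and 18.6 TPM in parental anti-PD-1 tumors and 12.9, 25.2 and 9.71 TPM in parental isotype tumors. It was called pooled (-1.27 ± 0.35 (SE), adjusted p = 0.0167), but UV2 anti-PD-1 replicates 1 and 2 lay inside the parental range. The list's mean log2(TPM + 1) ran from 6.03 to 7.02 in UV2 and from 7.01 to 7.84 in parental tumors.

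Sterol synthesis genes were lower in UV2. Of 24 tested, 19 were called lower, 0 higher, and 4 hold. The median log2 fold change was -1.82 under anti-PD-1 and -0.54 under isotype (-1.18 pooled). Cyp51, a demethylase of the pathway, had 13.4, 17.9 and 13.4 TPM in UV2 anti-PD-1 tumors and 45.4, 40.6 and 35.3 TPM in UV2 isotype tumors, against 58.6, 70 and 59.8 TPM in parental anti-PD-1 tumors and 82.4, 71.7 and 52.1 TPM in parental isotype tumors. The UV2 anti-PD-1 libraries were the lowest and the UV2 isotype libraries lay between them and the parental ones of either arm (log2 fold change -1.37 ± 0.23 (SE), adjusted p = 0.00194). Among the 5 smallest p of the interaction were 3 genes of the pathway, Sqle, Idi1 and Sc4mol (the older symbol of Msmo1), with interaction log2 values of -1.54 ± 0.30, -1.44 ± 0.28 and -1.01 ± 0.21 (SE). None passed in the unweighted model (adjusted p = 0.775 for each). The remaining 2 of the 5 were Rmrp and Crabp1, a retinoic acid-binding protein, which ran from 443 to 592 TPM in UV2 anti-PD-1 tumors and from 1013 to 1412 TPM in UV2 isotype tumors, against 1425 to 1604 TPM in all parental tumors.

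MAPK output and cell division genes were lower as well, less so under isotype than under anti-PD-1. Of 16 MAPK output genes 13 were called lower and 0 higher, with 2 holding, Etv4 and Fosl1. The median was -1.17 pooled, -1.49 under anti-PD-1 and -0.70 under isotype. Within the arms 11 were called lower under anti-PD-1 and 1 under isotype, beside 14.8% and 0.799% of all genes. The list's mean log2(TPM + 1) in UV2 isotype replicate 3 (5.55) exceeded that in parental isotype replicate 3 (5.46). Etv4, an ETS factor induced by the pathway, had 31.9, 34.1 and 21.3 TPM in UV2 anti-PD-1 tumors and 38.3, 29.9 and 45.8 TPM in UV2 isotype tumors, against 69.6, 85.6 and 92.9 TPM in parental anti-PD-1 tumors and 92.2, 89.6 and 78.4 TPM in parental isotype tumors, with no overlap (log2 fold change -1.34 ± 0.15 (SE), adjusted p = 3.24e-04). The feedback inhibitor Spry4 ran from 14.8 to 33.7 TPM in UV2 and from 30.4 to 58.8 TPM in parental tumors (log2 fold change -1.05 ± 0.22 (SE), adjusted p = 0.005), and Ier3 from 31.6 to 154 TPM against 115 to 382 TPM (log2 fold change -1.74 ± 0.34 (SE), adjusted p = 0.00402). Dusp6 (-0.12) and Spry1 (0.39) were not called. Of 30 cell division genes, 15 were called lower, 0 higher, and 5 hold (median -0.44, against -0.13 for all genes). The median was -0.61 under anti-PD-1 and -0.27 under isotype, against -0.22 and -0.04 for all genes. Within the arms 18 were called lower under anti-PD-1 and 0 under isotype. Here too UV2 isotype replicate 3 (list mean 6.03) lay above parental isotype replicate 3 (5.99). Cdk1, the kinase that starts mitosis, ran from 48.6 to 76.8 TPM in UV2 and from 87.1 to 119 TPM in parental tumors, and E2f1, a factor of cell cycle entry, from 54.8 to 67.8 TPM against 71.8 to 92 TPM (log2 fold changes -0.63 ± 0.10 (SE), adjusted p = 0.00198 for Cdk1 and -0.48 ± 0.09 (SE), adjusted p = 0.00294 for E2f1). The replication licensing genes Mcm2 (-0.25), Mcm5 (-0.07) and Pcna (-0.07) were not called.

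**Figure D4:**
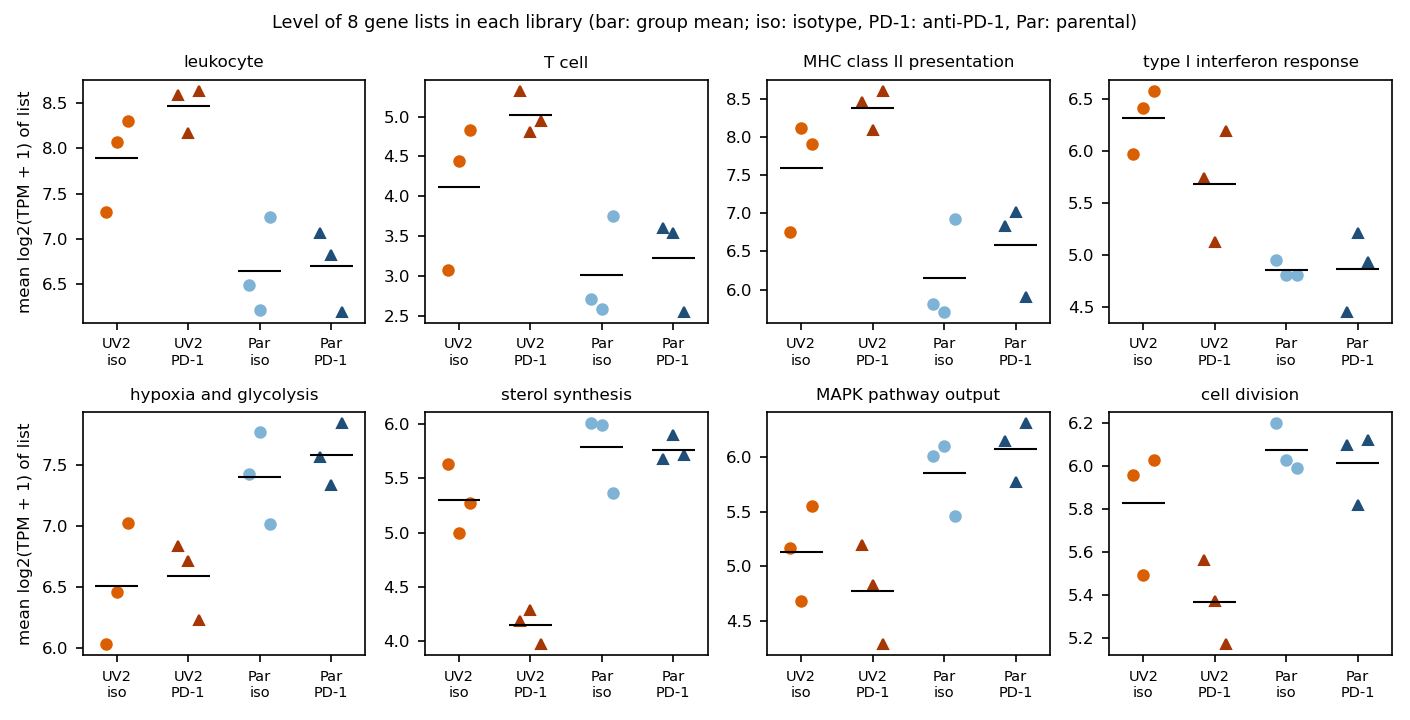
Mean log2(TPM + 1) over the members of 8 gene lists in each library (circles isotype, triangles anti-PD-1), with a bar at each group's mean. UV2 groups lie to the left of parental groups in each panel; UV2 isotype replicate 1 is the lowest UV2 library for the leukocyte, T cell and class II lists, and the UV2 anti-PD-1 libraries, at 3.97 to 4.28, are lowest for sterol synthesis.

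Of 24 genes of dedifferentiated melanoma, 9 were called lower and 1 higher, with Vim (log2 fold change -1.01 ± 0.16 (SE), adjusted p = 0.00154) and Aqp1, a water channel (-1.76 ± 0.36 (SE), adjusted p = 0.00486), among those that hold. The 1 called higher was Ctgf (1.02), a matrix-associated growth factor. Mitf was not called (log2 fold change -0.23 ± 0.20 (SE), adjusted p = 0.358). Of 9 melanocyte lineage genes tested, 2 were called higher (22.2%) and 2 lower (22.2%), beside 14.4% and 18.3% of all genes. Each count was 1 in 8 of the 12 fits that left out 1 library, and the lower call of Pax3, a lineage factor, was lost in 8 of them (log2 values from -0.94 to -0.77). Of 13 Wnt antagonists and targets, 1 was higher (7.69%) and 3 lower (23.1%), and of 5 Schwann cell and nerve genes 1 was lower (20%). With so few members these counts show nothing about the 2 lists. Of 25 p53 response genes 4 were called higher (16%) and 5 lower (20%), shares near those of all genes, so the counts show nothing about the list. Fas, a death receptor, ran from 19 to 28 TPM in UV2 and from 7.78 to 12.4 TPM in parental tumors, and Sesn1, a stress-induced regulator of growth, from 33.7 to 52.1 TPM against 11.9 to 23.2 TPM. Cdkn1a, the cell cycle inhibitor p21, went the other way, from 105 to 157 TPM in UV2 and from 159 to 259 TPM in parental tumors (log2 fold changes 1.15 ± 0.14 (SE), adjusted p = 6.97e-04 for Fas, 1.21 ± 0.17 (SE), adjusted p = 0.00111 for Sesn1 and -0.73 ± 0.13 (SE), adjusted p = 0.00306 for Cdkn1a). Immediate early genes were also split, 8 higher and 6 lower of 20. These counts were as low as 4 and 3 when UV2 isotype replicate 2, parental isotype replicate 1 or parental anti-PD-1 replicate 3 was left out. Nr4a1 had 27.5, 31.2 and 14.5 TPM in UV2 anti-PD-1 tumors and 7.89, 12.8 and 20.1 TPM in UV2 isotype tumors, against 61.6, 104 and 116 TPM in parental anti-PD-1 tumors and 66.9, 79.6 and 56.2 TPM in parental isotype tumors, with no overlap (log2 fold change -2.11 ± 0.25 (SE), adjusted p = 5.85e-04), whereas Jund was higher (log2 fold change 0.84 ± 0.14 (SE), adjusted p = 0.00216).

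Of 18 heat shock chaperones 9 were called lower and 0 higher, a count that was 4 or 5 without UV2 isotype replicate 2, UV2 anti-PD-1 replicate 3, parental isotype replicate 1 or 2, or parental anti-PD-1 replicate 1 or 3. Cytosolic ribosomal protein genes were called higher for 11 of 38, but this count was 4 with median-of-ratios scaling, where 0 were lower, and 4 with quantile normalization, where 1 was lower. It ran from 3 (for example without UV2 isotype replicate 2) to 30 (without UV2 isotype replicate 3). Fibroblast and matrix genes were called for 4 of 15: Lum and Postn, matrix proteins of stromal cells, and Thy1 were higher and Pdgfra, a growth factor receptor, was lower. These are 20% higher and 6.67% lower, beside 14.4% and 18.3% of all genes, so the counts show nothing about the list. Postn had 645, 836 and 541 TPM in UV2 anti-PD-1 tumors and 1059, 565 and 842 TPM in UV2 isotype tumors, against 427, 166 and 123 TPM in parental anti-PD-1 tumors and 225, 241 and 219 TPM in parental isotype tumors, with no overlap (log2 fold change 1.74 ± 0.26 (SE), adjusted p = 0.00142), and Lum ran from 276 to 613 TPM in UV2 and from 172 to 245 TPM in parental tumors (log2 fold change 1.19 ± 0.15 (SE), adjusted p = 6.86e-04). The collagens Col1a1 (0.41) and Col3a1 (0.25) were not called. Endothelial genes were called for 1 of 12 (Cldn5, a tight junction protein, 0.98), and skeletal muscle, adipocyte, erythrocyte and keratinocyte genes for 0 of 18, 9, 6 and 2.

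The level of leukocyte transcripts moved with the line, and the fit was repeated with the mean log2(TPM + 1) of the 6 pan-leukocyte markers as a covariate. In that limma fit 3 genes were called: Xlr higher (log2 fold change 3.63 ± 0.42, adjusted p = 0.0139) and Eif2s3y and Ddx3y lower (adjusted p = 0.0114 for each). The median SE over all genes was 0.36 with the covariate and 0.18 without it, and the summed marker level did not overlap between the lines. The signs of 3429 of the 4350 pooled calls were kept. The median of the hypoxia and glycolysis list was -0.72 with the covariate and that of the type I interferon list 0.92. Single type I members moved by more: Oas1a had 0.82 ± 0.49, Ifi27l2a 0.83 ± 0.53, Irf7 1.23 ± 0.71 and Oas1g 1.14 ± 0.49 on the log2 scale (SE), with limma adjusted p from 0.787 to 0.987. The medians of the T cell (-0.52), class II (-0.07), chemokine (-0.26), sterol synthesis (-0.17) and MAPK output (-0.28) lists moved close to 0 or below it. The part that leukocyte content has in these differences was not tested beyond this fit.

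The line difference was also summarised by chromosome. Of the 13270 genes tested, 13121 had a position on GRCm38. Leaving out chromosome Y, between 6.55% and 19.8% of the genes of a chromosome were called higher in UV2 and between 14.1% and 23% lower. Chromosome 18 had the lowest median log2 fold change (-0.28, with -0.43 under anti-PD-1 and -0.13 under isotype) and the lowest share called higher, 22 of 336 genes (6.55%), with 77 (22.9%) lower. It was lowest in each arm. Chromosome 6 had the highest share called higher, 133 of 671 (19.8%), and chromosome 7 followed with 190 of 998 (19%). These values are a description, and copy number was not measured.

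**Figure D5:**
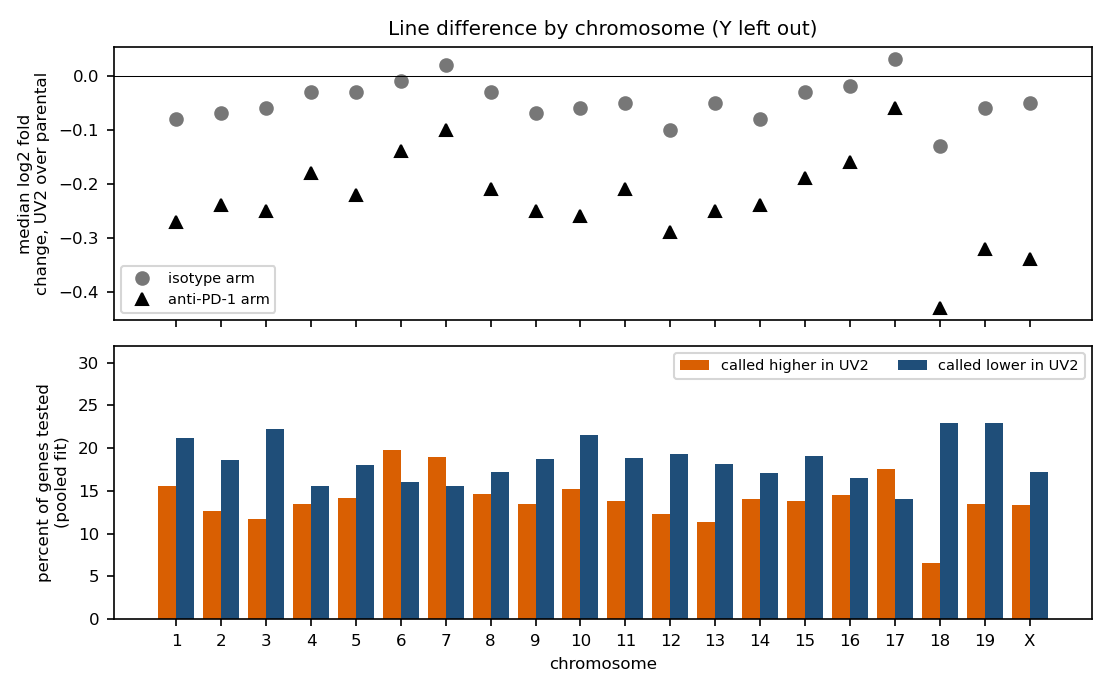
Line difference by chromosome: above, the median log2 fold change of UV2 over parental in the isotype arm (circles) and the anti-PD-1 arm (triangles); below, the percent of tested genes called higher (orange) and lower (blue) in UV2 in the pooled model. Chromosome 18 lies lowest in both arms, at -0.43 under anti-PD-1 and -0.13 under isotype, and has the smallest orange bar (6.55%).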

How the data were processed

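Whole-tumor RNA from 12 libraries in 4 groups of 3 was analysed; parental triple therapy was left out. The authors deposited expression as TPM (scaled for transcript length and library total) per gene symbol, and the submitters' processing notes name Bowtie2, RSEM and mm10 (GRCm38), with versions not given in the sources used here. TPM keeps no read depth, so no counting interval is given, and a gain of one abundant transcript lowers the others.

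Values were taken as log2(TPM + 1). Genes with at least 1 TPM in at least 3 of the 12 libraries were tested (13270). limma 3.58.1 in R 4.3.3 (trended, robust empirical Bayes) fitted line plus antibody (9 residual degrees of freedom) for the pooled comparison, and 4 groups (8 degrees) for each arm and the interaction. Two-sided p-values were Benjamini-Hochberg adjusted over all genes tested, with calls under 0.05. A gene holds in both arms if it was called pooled and, in each arm, all 3 UV2 libraries lay beyond all 3 parental ones in that direction. Fold changes are on the log2(TPM + 1) scale, which understates low genes.

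Named genes were the 15 highest and 15 lowest that hold (mean of at least 5 TPM in the higher line, predicted and unnamed genes left out), a fixed set, up to 3 called members of each list by smallest p, and the 5 smallest interaction p. Other list members are named as examples of calls and of genes not called, chosen after their values were seen. The members, lists and tests were chosen with earlier results of these data known. Gene positions are GENCODE M21 (GRCm38), and promoters are RefSeq (GRCm38.p6). Alternatives varied the pseudocount, filter, scaling, covariates, weights and libraries. Some genes of the fixed set and lists are not reported here.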

Additional observations from a re-analysis of the deposited data

Results flagged for a closer look

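Rmrp was the one named gene whose 3 UV2 libraries lay above the 3 parental libraries under isotype and below them under anti-PD-1. The limma interaction for Rmrp had an adjusted p of 0.775 in the unweighted model, and all 3 parental isotype libraries were listed at 0 TPM.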

How the results depend on the processing

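The pooled count (4350) and the count that holds in both arms (1671) stayed within 1.5 times under another pseudocount, either filter, median-of-ratios scaling, quantile normalization, a skeletal muscle covariate and a fit with all 15 libraries. Across these settings and the arm fits the isotype count (227) moved past that limit: 116 without a filter, 383 with median-of-ratios scaling, 541 with quantile normalization, 117 with the muscle covariate and 69 with that arm fitted alone. Which genes hold depended on the scaling more than their total did. After median-of-ratios scaling 1158 of the 1671 still held, in a set of 804 higher and 1035 lower. Quantile normalization kept 1256 of the 1671, in a set of 780 higher and 1187 lower. The main setting had 827 higher and 844 lower. Library weights gave 6587 pooled, 3627 under isotype, 9433 under anti-PD-1 and 1612 for the interaction. Without UV2 isotype replicate 1 and parental isotype replicate 3, chosen after seeing the data, the counts were 6750 pooled, 812 under isotype and 5176 holding. With any library left out the separation rule is easier to meet, so counts that hold are then not like for like with 1671. Leaving out single libraries gave 2794 to 6313 pooled, 8 to 619 under isotype, 98 to 4506 under anti-PD-1, 0 to 0 for the interaction and 1524 to 4429 holding. The causes were not tested.

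The replicate numbers gave no sign of pairing the libraries. Correlations of deviations within a number ran from -0.546 to 0.49 over 18 pairs (median -0.112). Between numbers they ran from -0.573 to 0.622 over 36 pairs (median 0.08). Such ranges cannot show that pairing is absent. With the replicate block the counts were 3843 pooled, 15 under isotype, 2512 under anti-PD-1 and 1614 holding.

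With the leukocyte covariate the counts were 3 pooled, 3 under isotype, 0 under anti-PD-1 and 3 holding. Among named genes, 28 log2 fold changes had the opposite sign in that fit, with SEs from 0.25 to 0.64. Of these 16 lay within 1 SE of 0, and 0 were called (smallest limma adjusted p 0.784). T and NK cell genes were Cd3e -0.95, Cd8a -1.19, Gzmb -0.11, Pdcd1 -0.98, Cd247 -0.17, Cd2 -0.19, Lck -0.31, Nkg7 -0.39, Ctsw -0.15, Ctla4 -0.32, Cd160 -0.00, Lag3 -0.49, Tnfrsf4 -0.03, Klre1 -0.33 and Klrk1 -0.20. The others were B2m -0.30, H2-Ab1 -0.56, Ptprc -0.28, Ifngr1 -0.22, Rab27a -0.50, Pax3 0.31, Ccl4 -0.09, Cd79b -0.83, Cd22 -0.53, Csf3r -0.50, Cma1 -0.06, Tpsb2 -0.13 and Mcpt4 -0.13. Ptprc is itself a marker in the leukocyte covariate, so its value in that fit is partly fixed by construction. Outside that fit 0 named genes reversed and 43 values lost their call. TPM limits precision at low levels, where depth is unknown.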
